A study of Mus musculus with 6 samples.

Results

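The vascular endothelial growth factor (VEGF) system was followed through 10 genes, taken by their symbols from the table of gene counts: the ligands Vegfa, Vegfb, Vegfc and Pgf, the receptor tyrosine kinases Flt1, Kdr and Flt4, the neuropilin co-receptors Nrp1 and Nrp2, and Ecscr, an endothelial surface protein that modulates VEGF receptor 2. All 10 were found among 57010 listed genes, and all 10 were among the 14799 that held enough counts to be tested. The libraries came from primary neonatal mouse cardiomyocytes (NMCMs) of C57BL/6 mice, 1 to 3 days old, kept under hypoxia (HO). V1, V2 and V3 made up the HO + Vehicle group, and T4, T5 and T6 the HO + β-SITO group. β-SITO is β-sitosterol, a plant sterol, and its dose and the hours of hypoxia for these libraries are not given in the sources used here. Both groups were hypoxic, so the comparison is of β-SITO with vehicle under hypoxia. NMCMs were parted from fibroblasts by differential adhesion only, and the labels do not say whether libraries of a group came from separate isolations, so p-values measure the spread between these libraries, which may be technical.

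VEGF ligands are secreted dimers. VEGF-A binds VEGFR1 (Flt1) and VEGFR2 (Kdr), VEGF-B and placental growth factor (Pgf) bind VEGFR1, and VEGF-C binds VEGFR3 (Flt4) and, once processed, VEGFR2. VEGFR2 carries most of the signal for endothelial growth and permeability, whereas VEGFR1 binds VEGF-A tightly with weak kinase activity and is also made as a soluble decoy. Neuropilins hold VEGFs at the receptors and are also receptors for class 3 semaphorins. In the heart, cardiomyocytes and other cells release VEGF-A under low oxygen, and endothelial cells carry most of the receptors.

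The libraries held 16694734 to 18460522 counts. The cardiomyocyte markers Myh6, Actc1 and Tnnt2 were well expressed in both groups (1973, 1460 and 1236 CPM, which are counts scaled by library size after TMM normalization, in the HO + Vehicle group). The fibroblast collagens Col3a1, Col1a1 and Col1a2 were too, with higher values of 10420, 9100 and 6800 CPM in the HO + Vehicle group. Transcripts of both cell types were thus present. In T4, the summed CPM of 15 cardiomyocyte markers was 6098, against 10300 in T5, 10440 in T6 and 6984 to 7972 in the vehicle libraries. All 3 β-SITO libraries carry a suffix in their library names that the vehicle libraries lack, so a difference in preparation, if there was one, and the treatment cannot be told apart. A transcript that is lower in such bulk libraries can mean fewer cells of a type or less RNA per cell, and these cannot be told apart here.

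Members with large changes were found in both directions. Of the 10 genes, 2 (Kdr and Nrp1) were higher and 4 (Vegfc, Flt1, Nrp2 and Ecscr) were lower in the HO + β-SITO group as differentially expressed genes (DEGs), at more than 2-fold and an adjusted p under 0.05 in edgeR's quasi-likelihood test. Among all tested genes, 22.8% were DEGs, 12.8% higher and 10.1% lower. By the adjusted p alone 2 of the 10 were higher and 6 lower, where 66.8% of all tested genes passed, 33% higher and 33.8% lower. For 9 of the 10, all but Pgf, the ranges of the groups were apart, as they were for 70.5% of all tested genes. The median log2 fold change was -0.31 over the 10 genes and -0.0073 over all tested genes. Only Kdr and Nrp1 of the 10 had a positive log2 fold change.

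**Figure D1:**
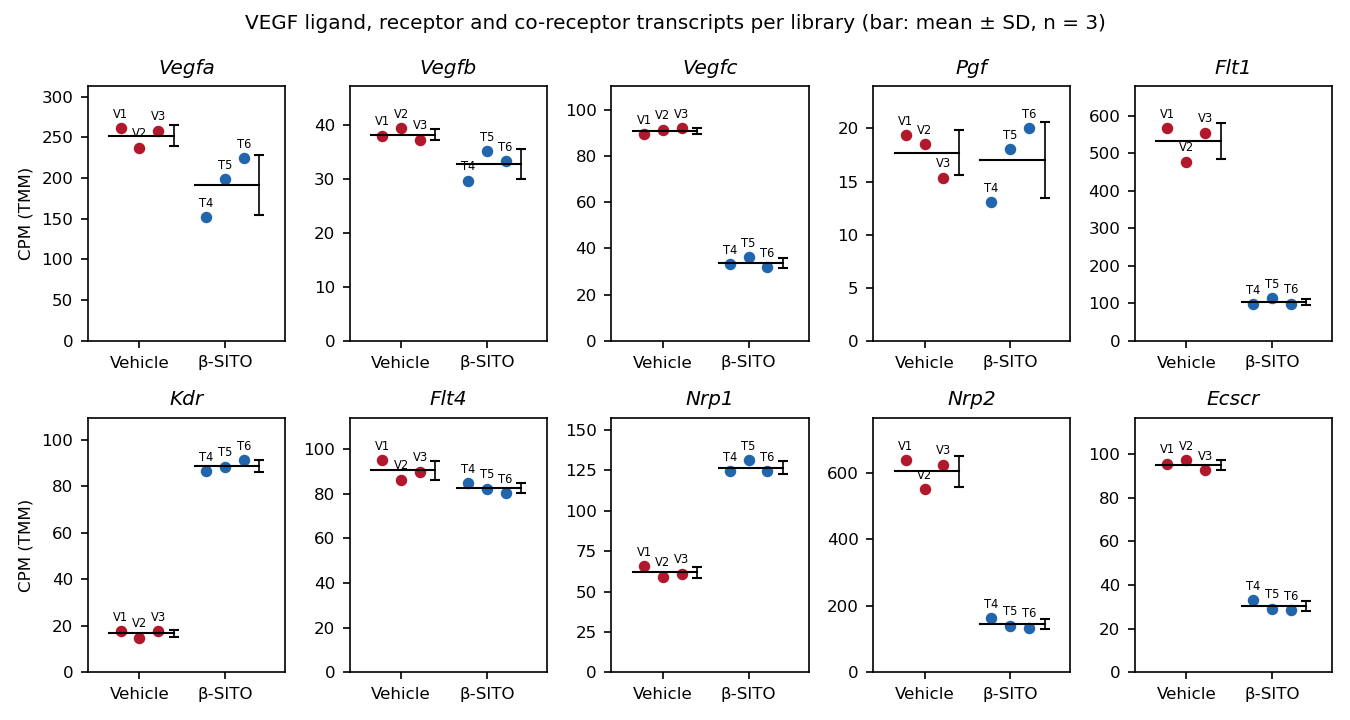
CPM after TMM normalization of the 10 VEGF system genes (vertical axes, from 0, a scale per gene) in each library of the HO + Vehicle (red) and HO + β-SITO (blue) groups, with the mean as a horizontal line and the SD as an error bar (n = 3). Kdr and Nrp1 sit higher and Vegfc, Flt1, Nrp2 and Ecscr lower in all 3 β-SITO libraries, and the Pgf libraries of the groups overlap.

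Flt1 and Kdr, the receptors for VEGF-A, moved in opposite directions by similar amounts. Nrp1 and Nrp2 also moved in opposite directions, with the larger change in Nrp2. Because each of these pairs parted, the stretches of 250 bases just before their start sites are shown, from RefSeq on GRCm38.p6, read 5′ to 3′ on the strand of the gene. Capitals mark the hypoxia response core (ACGTG or GCGTG), the GC box (GGGCGG) and the ETS core (CCGGAA), searched on both strands, and overlapping or adjoining matches run together. Kdr lies at chr5:75978456-75978705 on the minus strand, Flt1 at chr5:147726012-147726261 on the minus strand, Nrp1 at chr8:128358823-128359072 on the plus strand and Nrp2 at chr1:62703067-62703316 on the plus strand.
Kdr: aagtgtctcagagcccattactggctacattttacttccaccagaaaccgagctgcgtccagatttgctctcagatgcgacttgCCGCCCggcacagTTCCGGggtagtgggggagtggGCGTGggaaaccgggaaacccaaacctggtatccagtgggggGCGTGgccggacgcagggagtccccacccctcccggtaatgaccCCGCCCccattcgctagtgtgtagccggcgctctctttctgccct
Flt1: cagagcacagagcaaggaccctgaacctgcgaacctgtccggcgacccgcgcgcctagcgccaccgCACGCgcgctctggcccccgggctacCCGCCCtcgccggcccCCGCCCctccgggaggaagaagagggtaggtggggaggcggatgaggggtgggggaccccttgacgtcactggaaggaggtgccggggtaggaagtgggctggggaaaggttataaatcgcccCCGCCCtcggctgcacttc
Nrp1: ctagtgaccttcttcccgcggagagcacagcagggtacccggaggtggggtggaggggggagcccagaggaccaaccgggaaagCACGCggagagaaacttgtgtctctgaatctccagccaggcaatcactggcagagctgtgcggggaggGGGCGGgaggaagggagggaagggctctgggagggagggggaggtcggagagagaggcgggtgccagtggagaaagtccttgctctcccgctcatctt
Nrp2: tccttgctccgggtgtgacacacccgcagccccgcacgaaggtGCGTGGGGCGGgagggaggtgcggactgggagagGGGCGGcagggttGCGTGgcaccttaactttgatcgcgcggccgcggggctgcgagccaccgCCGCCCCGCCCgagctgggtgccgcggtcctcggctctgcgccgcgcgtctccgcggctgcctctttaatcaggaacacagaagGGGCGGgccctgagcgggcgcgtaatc

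Each of these 4 stretches held a hypoxia response core and a GC box. The Kdr stretch held 2 hypoxia cores, starting 131 and 89 bases before the start site, 2 GC boxes and 1 ETS core, which starts 153 bases before it. The Flt1 stretch held 1 hypoxia core and 3 GC boxes, the Nrp1 stretch 1 of each, and the Nrp2 stretch 2 hypoxia cores and 5 GC boxes. RefSeq gave 11 such windows for 9 of the 10 genes. A hypoxia core was in 7 of the 11 windows, a GC box in 10 and an ETS core in 1, the Kdr one, against 38.6%, 32.7% and 12.0% of 32851 windows of all genes. The windows of the VEGF genes were also GC-rich, with a median of 68.4% against 52.4% over all windows. These matches are letters in a window, not sites shown to be bound. Of the other DEGs, Vegfc had a window with 2 GC boxes and 0 hypoxia cores, and Ecscr had no window. Both groups were hypoxic, and the part of these motifs in the changes was not tested.

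Among the receptors, Kdr, which encodes VEGFR2 and lies on chromosome 5 from 76093487 to 76139118 in the authors' table (GRCm39 in the submitters' processing notes), had 17.8, 15.0 and 17.7 CPM in V1, V2 and V3 and 86.3, 88.4 and 91.3 CPM in T4, T5 and T6. All β-SITO libraries were above all vehicle libraries, and the mean rose from 16.8 ± 1.59 to 88.7 ± 2.47 CPM (SD, n = 3), which is 5.27-fold, or 2.40 ± 0.08 (SE) on the log2 scale (edgeR, adjusted p = 3.21e-13). Kdr ranked 170 by increase among the 10992 tested genes with a mean of at least 100 counts. The Kdr counts behind these values were 239 to 286 per vehicle library and 1573 to 1753 per β-SITO library.

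Flt1, which encodes VEGFR1 and lies on the same chromosome from 147498414 to 147662821, had 566.1, 477.1 and 554.9 CPM in V1 to V3 and 97.7, 113.9 and 99.5 CPM in T4 to T6. It fell in every β-SITO library, from 532.7 ± 48.5 to 103.7 ± 8.87 CPM (SD, n = 3), which is 5.14-fold lower, with a log2 fold change of -2.36 ± 0.08 (SE) (edgeR, adjusted p = 6.54e-13). Gene counts do not part the membrane form of Flt1 from its soluble form, and the same holds for the splice forms of Vegfa.

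Flt4 (chromosome 11, 49500090 to 49543566), which encodes VEGFR3, the receptor of lymphatic endothelium, had 95.1, 86.3 and 89.9 CPM in V1 to V3 and 84.8, 82.2 and 80.4 CPM in T4 to T6. The ranges lay close together without overlapping. The log2 fold change of -0.13 (95% interval -0.26 to -0.0050) did not pass (edgeR, adjusted p = 0.0625).

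**Figure D2:**
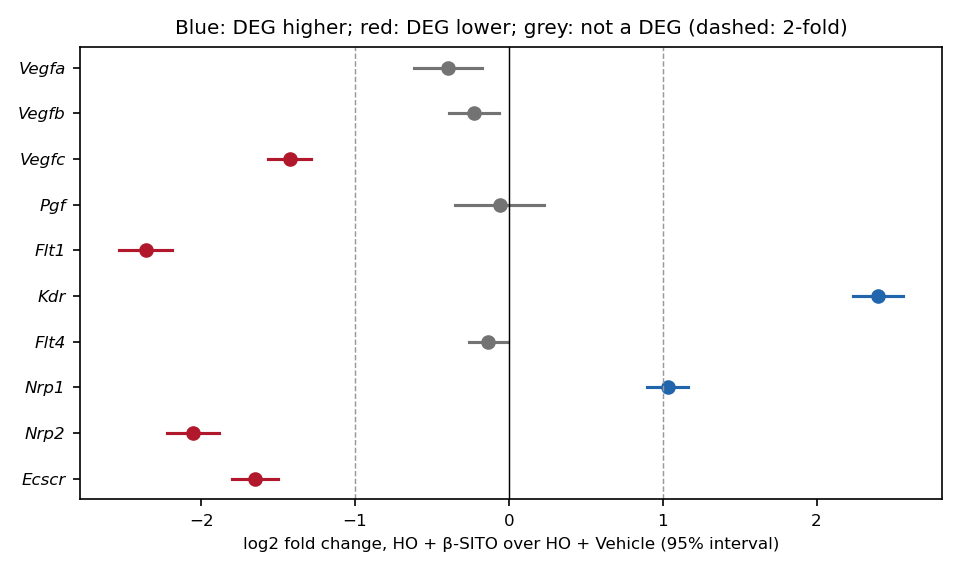
log2 fold change of each VEGF system gene in the HO + β-SITO group over the HO + Vehicle group (horizontal axis) with its 95% interval from edgeR's quasi-likelihood fit. Kdr at 2.40 and Flt1 at -2.36 lie at the opposite ends, and the 4 grey genes lie between -0.40 and -0.06, inside the dashed 2-fold lines.

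The mix of VEGF receptors was therefore different. The ratio of Flt1 to Kdr reads per kilobase, which does not depend on the scaling between libraries, was 21.3, 21.3 and 20.9 in V1, V2 and V3 and 0.757, 0.861 and 0.729 in T4, T5 and T6. Flt1 thus had more reads per kilobase than Kdr in every vehicle library and fewer in every β-SITO library, a 27.1-fold difference in the ratio between the groups (two-sided exact permutation test, p = 0.1, which is the floor for 3 libraries against 3). The exon lengths came from GENCODE vM21, another annotation than the authors', which bears on the ratio in each library and not on its difference between the groups. Without division by length, Flt1 stayed above Kdr in every β-SITO library. It had 97.7, 113.9 and 99.5 CPM in T4, T5 and T6, against 86.3, 88.4 and 91.3 CPM for Kdr, so the change of order rests on these lengths. Of the reads per kilobase of the 3 receptors, Flt1 took 75.4 ± 0.87% with vehicle and 27.9 ± 1.75% with β-SITO (SD, n = 3). The share of Kdr was 3.56 ± 0.07% against 35.7 ± 1.25%, and that of Flt4 was 21.1 ± 0.94% against 36.4 ± 1.41% (SD, n = 3). The sum over the 3 receptors was 52.3 ± 4.25 against 27.5 ± 0.60 RPKM, which is CPM per kilobase of exon (SD, n = 3).

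**Figure D3:**
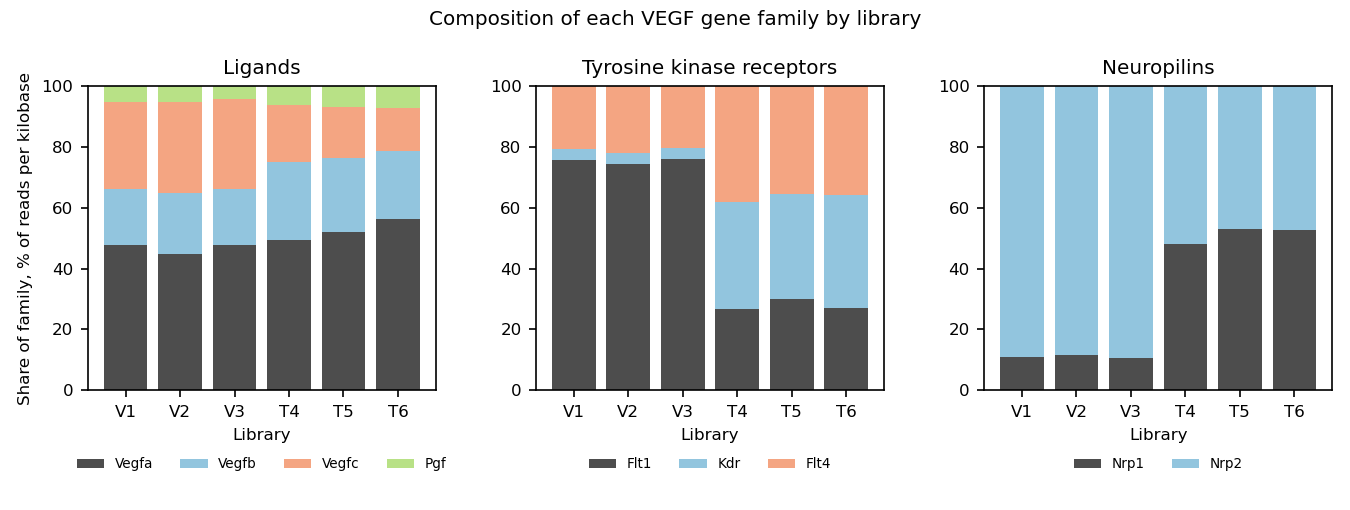
Share of each gene in its family (vertical axis, percent of the family's reads per kilobase) in each library (horizontal axis) for the ligands, the receptor tyrosine kinases and the neuropilins. The ligand family holds Vegfa, Vegfb, Vegfc and Pgf, without Vegfd. Flt1 takes 74.4% to 76.1% of receptor reads per kilobase in V1 to V3 and 26.7% to 29.9% in T4 to T6, and Nrp1 goes from 10.6% to 11.5% of the neuropilins to between 48.1% and 53.1%.

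The neuropilins parted in the same manner. Nrp2 (chromosome 1, 62742444 to 62857854), which pairs with VEGFR3 and VEGFR2 and binds VEGF-C, had 638.9, 550.5 and 624.8 CPM in V1 to V3 and 162.3, 140.3 and 134.5 CPM in T4 to T6. It fell from 604.8 ± 47.5 to 145.7 ± 14.7 CPM (SD, n = 3), 4.15-fold lower, with a log2 fold change of -2.05 ± 0.08 (SE) (edgeR, adjusted p = 3.69e-12). Nrp1 (chromosome 8, 129085085 to 129229844), the partner of VEGFR2 for VEGF-A, had 65.8, 59.2 and 60.9 CPM in the vehicle libraries and 124.4, 131.4 and 124.3 CPM in the β-SITO libraries. It rose from 62.0 ± 3.41 to 126.7 ± 4.11 CPM (SD, n = 3), by 1.03 ± 0.06 (SE) on the log2 scale (edgeR, adjusted p = 7.39e-10).

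The increase of Nrp1 was just past 2-fold, with a 95% interval of 1.87-fold to 2.24-fold, and it was not called when tested against a 2-fold change (edgeR's glmTreat, adjusted p = 0.609). The ratio of Nrp1 to Nrp2 reads per kilobase was 0.125, 0.130 and 0.118 in V1 to V3 and 0.927, 1.13 and 1.12 in T4 to T6, an 8.50-fold difference between ranges that were apart (two-sided exact permutation test, p = 0.1, the floor). Genes overlapping Nrp1, Nrp2 and Ecscr in the table held at most 8 counts in any library, against 521 or more for each of these members.

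Ecscr lies on chromosome 18 from 35846139 to 35855409. It had 95.6, 97.4 and 92.8 CPM in V1 to V3 and 33.1, 29.3 and 28.6 CPM in T4 to T6. Every β-SITO library was lower, and the mean fell from 95.3 ± 2.31 to 30.3 ± 2.41 CPM (SD, n = 3), 3.14-fold, with a log2 fold change of -1.65 ± 0.07 (SE) (edgeR, adjusted p = 9.41e-12).

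Of the ligands Vegfa, Vegfb, Vegfc and Pgf, Vegfc was a DEG and the others were not. Vegfc (chromosome 8, 54530641 to 54640131), the growth factor of lymphatic vessels, had 89.4, 91.3 and 91.9 CPM in V1 to V3 and 33.3, 36.2 and 32.0 CPM in T4 to T6. The libraries of each group lay close together, and Vegfc fell from 90.9 ± 1.29 to 33.8 ± 2.14 CPM (SD, n = 3), 2.69-fold, with a log2 fold change of -1.43 ± 0.07 (SE) (edgeR, adjusted p = 2.75e-11).

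Vegfa (chromosome 17, 46327919 to 46343295), the ligand best known for its induction by hypoxia, had 260.9, 237.4 and 258.2 CPM in V1 to V3 and 152.1, 198.6 and 224.6 CPM in T4 to T6. Every β-SITO library was below every vehicle library, but they spread widely, with a coefficient of variation of 19.1% against 5.10% in the HO + Vehicle group. The log2 fold change was -0.40 (95% interval -0.62 to -0.17; edgeR, adjusted p = 0.00334), which is 1.31-fold lower and not a DEG. T4, the library with the lowest Vegfa, is also the one with the lowest summed cardiomyocyte markers. The log2 fold change was -0.25 without T4, and also -0.25 with upper quartile scaling or with library size only. The part of cardiomyocyte content in the Vegfa difference was not tested.

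Vegfb (chromosome 19, 6959841 to 6965019), a VEGFR1 ligand abundant in heart muscle, had 38.0, 39.4 and 37.3 CPM in V1 to V3 and 29.7, 35.1 and 33.3 CPM in T4 to T6. Its log2 fold change of -0.23 passed the adjusted p alone (edgeR, adjusted p = 0.0166, the background of lower genes by adjusted p alone being 33.8%) but not 2-fold. With V1 or T4 left out, it no longer passed that p (0.0502 and 0.0846 in edgeR), and with library size only or upper quartile scaling it was -0.078 and -0.083.

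Pgf (chromosome 12, 85213409 to 85224564), the other VEGFR1 ligand, had 19.3, 18.5 and 15.4 CPM in V1 to V3 and 13.1, 18.04 and 20.0 CPM in T4 to T6. The groups overlapped, and no difference was detected at this depth of 248 to 384 counts per library (log2 fold change -0.06, 95% interval -0.35 to 0.23; edgeR, adjusted p = 0.717).

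Comparing levels between genes needs a length, which the count table does not give. The plan was to make no such comparison in that case, and the order given here, by exon lengths of another annotation, was added after the data were seen. Scaled in this way, Vegfa led in both groups, with a mean of 58.8 RPKM in the HO + Vehicle group and 44.8 RPKM in the HO + β-SITO group. In the HO + Vehicle group it was followed by Ecscr (54.4 RPKM), Nrp2 (51.1), Flt1 (39.5), Vegfc (37.1), Vegfb (23.8), Flt4 (11.0), Nrp1 (6.33), Pgf (6.11) and Kdr (1.86). In that order, Vegfa and Ecscr, Ecscr and Nrp2, Flt1 and Vegfc, and Nrp1 and Pgf were neighbours whose libraries overlapped. In the HO + β-SITO group the order by RPKM was Vegfa, Vegfb (20.4), Ecscr (17.3), Vegfc (13.8), Nrp1 (12.9), Nrp2 (12.3), Flt4 (10.02), Kdr (9.82), Flt1 (7.68) and Pgf (5.87). There, neighbours overlapped for Vegfb and Ecscr, Vegfc and Nrp1, Nrp1 and Nrp2, and Flt4 and Kdr. Kdr thus moved from the lowest level of the 10 to a level that was not apart from Flt4.

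Within the ligands, Vegfa made up 46.7 ± 1.65% of their reads per kilobase with vehicle and 52.5 ± 3.56% with β-SITO (SD, n = 3). Vegfc made up 29.5 ± 0.82% against 16.5 ± 2.41% (SD, n = 3). The ratio of Vegfc to Vegfa was 0.6 to 0.673 in the vehicle libraries and 0.250 to 0.383 in the β-SITO libraries, and the ranges were apart (two-sided exact permutation test, p = 0.1, the floor). The ratio of Vegfb to Vegfa overlapped between the groups (two-sided exact permutation test, p = 0.2). That of Pgf to Vegfa was 0.0880 to 0.115 against 0.127 to 0.134.

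Endothelial cells carry most VEGF receptors, so the receptors were set beside 20 endothelial markers, none of which is among the 10 genes. Of these markers 18 were DEGs higher and 0 were DEGs lower, against 12.8% and 10.1% of all tested genes, with a median log2 fold change of 1.84. The largest increases were in Vwf, the clotting factor carrier of endothelium (4.09), Sox18 (2.72) and Emcn (2.51), and of the most abundant markers the VE-cadherin gene Cdh5 and Pecam1 each had a log2 fold change of 1.84. The exceptions, named after their values were seen, were Eng, a TGF-β co-receptor that other stromal cells also make (-0.39, with 535.5 ± 26.5 against 408.9 ± 20.9 CPM; SD, n = 3), and S1pr1 (0.73). Flt1, Nrp2 and Ecscr thus had log2 fold changes of opposite sign to those of 19 of the 20 markers, and Kdr had the sign of those 19.

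Divided by the summed counts of the 20 markers in the same library, Flt1 was 0.543 to 0.657 in V1 to V3 and 0.0600 to 0.0696 in T4 to T6, 9.38-fold lower in the HO + β-SITO group. The summed CPM of the markers was itself 1.83-fold higher in the HO + β-SITO group, so a gene with an unchanged level also has a lower quotient there. The same quotient was 7.59-fold lower for Nrp2, 5.75-fold lower for Ecscr and 4.92-fold lower for Vegfc. It was 2.43-fold lower for Vegfa, 2.14-fold for Vegfb, 2.003-fold for Flt4 and 1.92-fold for Pgf. For Kdr it was 0.0171 to 0.0210 against 0.0531 to 0.0570, 2.89-fold higher. None of these quotients overlapped between the groups (two-sided exact permutation tests, p = 0.1 for each of the 10 genes, the floor). Eng took 59.5% to 61.4% of the marker counts in the vehicle libraries and 24.3% to 26.6% in the β-SITO libraries. Without it, an alternative chosen after the values were seen, the quotient of Kdr was 1.53-fold higher and that of Flt1 17.7-fold lower, while that of Nrp1 went from 1.12-fold higher to 1.68-fold lower. The part of endothelial content in the members' changes was not tested.

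**Figure D4:**
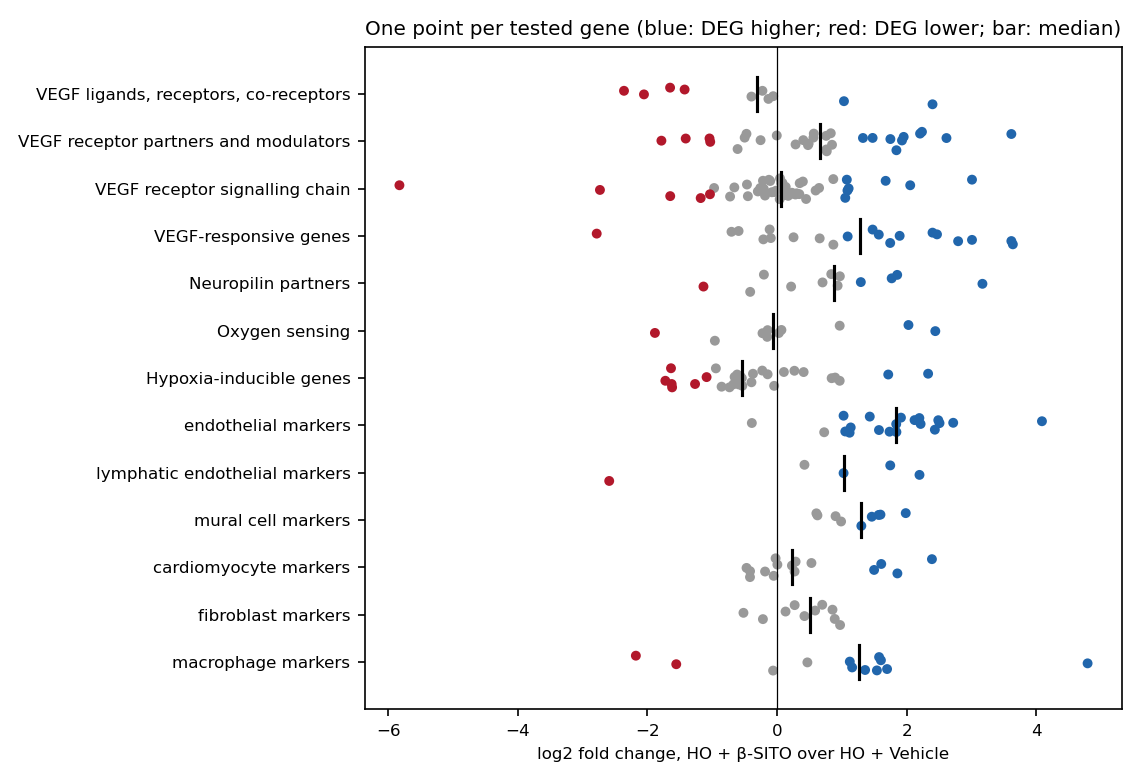
log2 fold change in the HO + β-SITO group over the HO + Vehicle group (horizontal axis) of every tested gene, 1 point a gene, in the VEGF system and 12 other lists, with a black bar at each median. The endothelial markers centre on 1.84 and the VEGF-responsive genes on 1.28, while the VEGF ligands, receptors and co-receptors run from -2.36 to 2.40.

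Markers of other cells that can make VEGF genes also moved, and the counts here stand beside 12.8% of all tested genes higher and 10.1% lower. Of 12 macrophage markers, 8 (66.7%) were DEGs higher and 2 (16.7%) lower, with a summed level of 1375 to 1502 CPM against 2871 to 3524 CPM. The largest increases on the log2 scale were in Mrc1 (4.79), C1qa (1.697) and Cd68 (1.60), the abundant Lyz2 (1.12) and C1qb (1.36) were also higher, and Fcgr1 (-2.18) and Cd14 (-1.56) were lower. Of 9 mural cell markers 5 (55.6%) were higher and 0 lower (Kcnj8 1.98, Notch3 1.60), with 1191 to 1297 CPM against 2134 to 2420 CPM. Of 10 fibroblast markers 0 were DEGs, though 7 had a higher and 2 a lower level at an adjusted p under 0.05 in edgeR, a threshold that 33% of all tested genes passed as higher and 33.8% as lower, and their sum was 30090 to 31380 CPM against 44790 to 45880 CPM. Of 15 cardiomyocyte markers 4 (26.7%) were DEGs higher and 0 lower, with a median log2 fold change of 0.23. Their sums overlapped, with 6984 to 7972 CPM against 6098 to 10440 CPM. The largest increases were in Myl7 (2.39), Myl4 (1.86) and Myh7 (1.61). The most abundant, Myh6 (0.53), Actc1 (0.0048) and Tnnt2 (-0.47), were not DEGs. Lymphatic markers, of interest for Vegfc, Flt4 and Nrp2, were mixed: of 5 tested, 3 (60.0%) were DEGs higher, among them Lyve1 (1.75) and Mmrn1 (1.03), and 1 (20.0%) was lower, Pdpn (-2.59), while Ccl21a was too low to be tested. In the HO + Vehicle group Pdpn had 563.6 CPM, against 24.9 for Prox1 and 13.7 for Lyve1. Whether these transcripts came from lymphatic endothelium was not tested. The part of all these cell types in the members' changes was not tested either.

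A list of 30 partners and modulators of the VEGF receptors had 10 DEGs higher (33.3%) and 4 lower (13.3%), against 12.8% and 10.1% of all tested genes, so the lower share was near the background. The median log2 fold change of the list was 0.66. Its gene Cdh5 is also an endothelial marker, and Dll4 and Adamts1 are also in the list of VEGF-responsive genes. The endothelial markers were higher, and their part in this count was not tested. Among ligands, Vegfd, the other VEGFR3 ligand, had 26.2, 28.5 and 26.0 CPM in V1 to V3 and 106.8, 102.5 and 103.0 CPM in T4 to T6. It rose 3.87-fold (log2 fold change 1.95; edgeR, adjusted p = 5.34e-13), while Vegfc, which shares its receptor, fell. Of the genes whose proteins hold VEGFR2 in check, the receptor phosphatase gene Ptprb rose (2.21), as did Cdh5 (1.84) and Timp3, a VEGFR2 antagonist outside the cell (2.61). The phosphatase genes Ptprj (-1.03) and Ptpn1 (-1.04) were lower by just over 2-fold. Neither was a DEG with glmTreat, upper quartile scaling or library size only. Ptpn1 was also lost without V1 (-0.99) or T5 (-0.98), and Ptprj without V1, V3, T5 or T6 (-0.996 to -0.934).

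Dll4, the Notch ligand that VEGF induces in tip cells, had 3.98, 3.32 and 4.03 CPM in V1 to V3 and 40.1, 50.03 and 48.9 CPM in T4 to T6. It rose 12.2-fold, a log2 fold change of 3.61 (edgeR, adjusted p = 5.47e-13). The feedback inhibitor Spry1 rose (2.23), whereas Spry2 (0.40) and Spry4 (-0.0044) were not DEGs and Spred1 fell (-1.41). Thbs2 (1.75), Adamts1 (1.47) and Vash1 (1.93), which encode secreted factors that limit angiogenesis, rose. Other genes of the list for matrix or secreted proteins were not DEGs, with -0.61 for Thbs1, 0.76 for Col18a1, 0.56 for Sparc and 0.49 for Hspg2. The integrin gene Itgav fell (-1.78), and Itgb3 (-0.50) was not a DEG. Dab2, an adaptor in receptor uptake, rose (1.32).

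The 12 neuropilin partners, which are class 3 semaphorins and the plexins that signal with neuropilins, had 4 DEGs higher (33.3%) and 1 lower (8.33%), against 12.8% and 10.1% of all tested genes. The plexin gene Plxna4 had 9.66, 7.59 and 9.24 CPM in V1 to V3 and 82.9, 78.8 and 76.4 CPM in T4 to T6, a log2 fold change of 3.17. The semaphorin genes Sema3g (1.85), Sema3d (1.77) and Sema3f (1.29), a ligand of Nrp2, rose. Sema3c fell (-1.13), and it was no longer a DEG with upper quartile scaling, with library size only or with glmTreat. Plxnd1 (0.70), Plxna2 (0.93) and Plxna1 (-0.41) did not reach 2-fold.

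Downstream, 45 of 46 genes of the receptor signalling chain were tested, of which 7 were DEGs higher and 5 lower, 15.6% and 11.1%, against 12.8% and 10.1% of all tested genes. The largest increases were in Nos3, the endothelial nitric oxide synthase (3.01), the adaptor Shc2 (2.05) and the transcription factor Nfatc2 (1.68). The largest decreases were in Ptgs2, an inducible prostaglandin synthase (-5.82), the phospholipase Pla2g4a (-2.73) and the kinase Map2k1 (-1.65). The most abundant members, Cdc42 (-0.05), Rac1 (-0.13) and Akt1 (0.11), were not DEGs.

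Of 20 genes that VEGF is known to induce in endothelium, a list that includes Kdr itself, 11 (55.0%) were DEGs higher and 1 (5.0%) lower, against 12.8% and 10.1% of all tested genes, with a median log2 fold change of 1.28. The largest increases with enough counts were in Dll4, Nos3 (3.01) and the nuclear receptor gene Nr4a1 (2.79), and of the most abundant, Angpt2 had 2.47, Adamts1 1.47 and Egr1 0.87, which was not a DEG. Tfpi2, a protease inhibitor gene, fell (-2.78). Several of these genes are themselves expressed mainly in endothelial cells, whose markers were higher, and the part of that in this count was not tested. The list, like the others, was chosen with earlier results of these data known, so its share is a description only. Dll4 and Adamts1 were also counted among the partners, and Nos3 in the signalling chain.

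Upstream, the oxygen-sensing genes were measured in the same libraries. Hif1a, the oxygen-regulated factor that drives Vegfa, had 647.7, 671.7 and 709.4 CPM in V1 to V3 and 181.6, 188.0 and 180.2 CPM in T4 to T6. It fell 3.69-fold, a log2 fold change of -1.88 (edgeR, adjusted p = 3.17e-13). Epas1, its endothelial relative, was 1.94-fold lower, with a log2 fold change of -0.96 (edgeR, adjusted p = 4.16e-10). It fell short of the 2-fold needed for a DEG. Of the 10 oxygen-sensing genes 2, Hif3a (2.44) and Arnt2 (2.03), were DEGs higher and 1, Hif1a, lower, and these shares of 20% and 10% lie near the 12.8% and 10.1% of all tested genes. By adjusted p alone 3 of the 10 were higher and 4 lower, against 33% and 33.8% of all tested genes. The protein of Hif1a is controlled mainly by its breakdown, which counts do not show.

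Of 29 hypoxia-inducible genes, Vegfa among them, 2 (6.90%) were DEGs higher and 6 (20.7%) lower, against 12.8% and 10.1% of all tested genes, with a median log2 fold change of -0.54. The largest decreases were in P4ha2 (-1.72), a collagen prolyl hydroxylase, Hk2 (-1.64), a hexokinase, and Ero1a (-1.63), while Car9 (2.33) and Ankrd37 (1.71) rose from low levels. The 3 most abundant genes of the list, the glycolytic Ldha (-0.67), Eno1 (-0.54) and Aldoa (-0.37), did not reach 2-fold. Vegfa, at -0.40, lay between Eno1 and Aldoa. By adjusted p alone 6 of the 29 were higher and 19 lower, against 33% and 33.8% of all tested genes.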

How the data were processed

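RNA-seq counts of 6 libraries were compared, 3 of hypoxic NMCMs with vehicle and 3 with β-SITO. Per the labels and the study's methods, libraries were sequenced as paired-end reads, and the submitters' processing notes name FastQC, HISAT2, featureCounts and GRCm39; the counting options, strand setting and annotation release are not given in the sources used here. The authors deposited raw counts per gene, with no normalization. The sources differ on the library kit. Genes were filtered with filterByExpr, scaled by TMM and tested with edgeR 4.0.16 in R 4.3.3 (quasi-likelihood test, group as the only term, Benjamini-Hochberg adjustment over 14799 genes), with the study's thresholds for DEGs. DESeq2 1.42.0, which the study used, and limma 3.58.1 were alternatives. The SE is the log2 fold change over the square root of its F value, and 95% intervals use the fit's degrees of freedom. CPM uses TMM-scaled library sizes. RPKM divides CPM by the exon length of GENCODE vM21 (GRCm38), matched by gene ID for all 10 genes, since the table gives no length. The plan had been to compare no levels between genes in that case, so these levels and the shares built on them are an addition made after the data were seen, and an annotation other than the authors' could shift them; gene coordinates are the table's. Ratios added 0.5 counts. The script was tested on simulated data. The 10 genes and all lists were chosen with earlier results of these data known. Any gene of the partner, neuropilin partner and oxygen-sensing lists could be named, and those given were picked with their values known. In the other lists, named genes are at most the 3 largest increases and the 3 largest decreases among DEGs without overlap whose mean reached 50 counts, and the 3 most abundant. Aldoa is listed under more than 1 identifier, and the first was used. Library sizes were similar, so depth limits mainly Pgf, Kdr and other genes with few counts.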

Additional observations from a re-analysis of the deposited data

How the results depend on the processing

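The 6 calls among the 10 genes (2 higher, 4 lower) were the same in number with DESeq2, limma-voom, other scalings, other filters on low counts, without mitochondrial genes and without each library in turn. With glmTreat, 1 gene was higher, Nrp1 being lost (log2 fold change 1.03). By adjusted p alone 2 were higher and 6 lower, Vegfa and Vegfb being added, and over all tested genes 4885 were higher and 5007 lower, against 1888 and 1492 DEGs. Upper quartile scaling and library size only moved the median log2 fold change of all genes by 0.143 and 0.148. With them the sign turned for Pgf (0.0836 and 0.0885) and Flt4 (0.0104 and 0.0153), which were not DEGs. The sign of Pgf also turned without V1 (0.0289) and without T4 (0.104), and was -0.18 to 0.10 over the libraries left out. The ratio of summed ligands to summed receptors, 0.35 higher on the log2 scale in the HO + β-SITO group, was 0.67 without division by length. Vegfd, which rose, is not among the summed ligands. Nrp1 over endothelial markers turned from 0.16 to -0.81 with Cdh5 and Pecam1 only, -0.81 with the median of the markers and -0.75 without Eng. Among the lists, the 4 partners that were lower became 2, Itgav and Spred1, with glmTreat, upper quartile scaling, library size only, without V1 and without T5. The 7 higher signalling genes became 3 with glmTreat, and the 2 higher hypoxia-inducible genes became 4 with upper quartile scaling or library size only. Fibroblast DEGs went from 0 to 2 with upper quartile scaling and 3 with library size only. No paired analysis was possible because the groups share no replicate numbers. With 3 libraries a group, exact tests of ratios cannot go below 0.1.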

Other observations

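Within the HO + β-SITO group, 3 of the 10 genes (30.0%), Vegfa, Pgf and Kdr, were lowest in T4 and highest in T6, against 18.04% of all tested genes. Kdr differed little between them, with 86.3, 88.4 and 91.3 CPM in T4, T5 and T6. Of 28 other hypoxia-inducible genes, 18 (64.3%) showed the same order of these 3 libraries, against 18.04% of all tested genes. The summed cardiomyocyte markers had the same order (6098 CPM in T4, 10300 in T5 and 10440 in T6), and their part in it was not tested. The median level of the 28 genes was 6.65 on the log2 CPM scale in T4, 6.82 in T5 and 6.88 in T6. Egln3, a hypoxia-inducible oxygen sensor, had 217.5, 292.7 and 323.5 CPM in T4, T5 and T6, against 135.1 to 145.9 CPM in the vehicle libraries. The comparison of these libraries was made after the values of Vegfa were seen.

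A long noncoding RNA gene, ENSMUSG00000121092, starts 1580 bases past the end of Nrp1 on the same strand, on chromosome 8 from 129231424 to 129231957. It held 183, 170 and 199 counts in V1 to V3 and 411, 461 and 473 counts in T4 to T6, a log2 fold change of 1.05 ± 0.10 (SE) (edgeR, adjusted p = 2.02e-07), beside 1.03 for Nrp1. Of the genes within 2000 bases of Vegfb, Dnajc4 had a log2 fold change of -0.11 and Fkbp2 of -0.95, neither a DEG.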
